A study of Mus musculus with 4 samples.

Results

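Cytochrome P450 families 1 to 4 are the enzymes with which the liver oxidises drugs, pollutants, steroids and fatty acids. The 80 genes described here are those whose symbol begins with Cyp, then a family number from 1 to 4, a subfamily letter and a gene number, with names ending in -ps left out. They were taken from 25793 gene symbols counted in 4 mouse liver libraries. Family 1 has 3 of them, family 2 has 49, family 3 has 9 and family 4 has 19, and together they fall into 21 subfamilies.

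Each P450 enzyme holds a heme group whose iron is bound by 1 conserved cysteine, and it splits oxygen with electrons passed on from P450 reductase. Families 1 to 3 act mainly on foreign compounds and steroids, and family 4 mainly hydroxylates the ends of fatty acids. In liver most members are made by hepatocytes, many of them near the central vein. The receptors AhR, CAR, PXR and PPAR alpha switch on many of these genes when their ligands enter the cell.

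RNA sequencing was carried out on liver tumours and on normal liver of mice. Tumours 1 and 2 are labelled as tumours of β2SP+/-;SMAD3+/- mice, which carry 1 working copy each of beta-2 spectrin, an adaptor protein, and of SMAD3, which carries TGF-beta signals to the nucleus. Of the normal livers, 1 is labelled with that same double heterozygous genotype and 1 as wild type. The labels give no treatment, age, sex or number of animals, and do not say whether the tumours came from separate animals. Counts of the sex chromosome genes, given below, read as male in tumour 1 and as female in tumour 2, and so as separate animals.

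Several facts of the libraries bear on what follows. Gene counts per library ran from 11049931 in tumour 1 to 18448621 in the table labelled wild type. Submitter descriptions of the tumours hold the word Tcell, yet of the 7 T cell markers Cd3d, Cd3e, Cd3g, Cd2, Cd4 and Cd8a had 0 counts in both tumours, and Ptprc, which all white blood cells express, had 35 and 2. The descriptions in the series also name Hepatocytes, while the titles say liver tumor and normal liver, and groups here follow the titles. The normal tables held counts of the endothelial marker Stab2 (933 and 1110) and the Kupffer cell marker Clec4f (509 and 556) as well. The 8 hepatocyte markers summed to 301 and 616 counts per 1000000 gene counts (CPM, here unscaled) in tumours 1 and 2 and to 118276 and 112868 CPM in the normal tables. Trf, the gene of transferrin, made up most of the tumour sums with 3155 and 7190 counts, and without it (left out after its values were seen) the other 7 summed to 15.4 and 75.1 CPM against 98760 and 94533 CPM. The 5 bile duct markers summed to 3281 and 2963 CPM against 22.8 and 20.8 CPM in the normal tables. Spp1 gave most of this, and without it the sums were 1231 and 742 CPM against 6.90 and 6.40 CPM. Epcam had 356 counts in tumour 1 but 4 in tumour 2, against 46 and 48 in the normal tables. In bulk RNA, fewer hepatocytes and less P450 RNA per hepatocyte cannot be told apart, and the part of cell makeup in the results below was not tested. Among genes averaging 1 to 5 counts, the normal tables had exactly equal counts in 56.8% of 2632, whereas the tumours did in 13.1% of 2299. The normal tables were therefore averaged into 1 normal library, which mixes the 2 genotype labels and so is not matched to the tumours by genotype. Every test below sets 2 tumours against this 1 library. The p-values rest on the spread between the tumours and hold none among normal livers.

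Many members resemble each other so closely that some short reads cannot be placed. Among the 79 members matched to the GENCODE M21 transcripts, 49 (62%) shared more than 10% of their 31-base words with another gene, as did 28.3% of all matched genes. In 64 of 68 members with a closest relative in the list, that relative belonged to the same subfamily. On the chromosomes, 62 of 78 placed members lay next to a gene of their own subfamily. Cyp3a41a and Cyp3a41b were the extreme pair, with an identical run of 1637 bases. The likeness is easiest to see in the loop that holds the heme, the signature of the family. The 30 coding bases of this loop are shown for members on which the results turn, with the codon of the iron-binding cysteine in capitals, 5′ to 3′, read from the longest open reading frame of the GENCODE M21 transcripts (GRCm38).
Cyp1a2: ttcggcttgggaaagcgccggTGCattggg
Cyp1b1: ttctcagtgggcaaacggaggTGCatcggt
Cyp2e1: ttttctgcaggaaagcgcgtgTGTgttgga
Cyp2f2: ttttcggctggacgtcgactgTGTctggga
Cyp2c65: ttctcaacaggaaaacggattTGTgtggga
Cyp3a11: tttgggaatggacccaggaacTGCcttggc
Cyp3a13: tttgggagtggaccaaggaacTGCattggc
Cyp4a10: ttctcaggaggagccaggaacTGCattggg
Cyp4f15: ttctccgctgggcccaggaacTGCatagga
Cyp4f16: ttttctgccgggcccaggaacTGCatagga
Cyp4v3: ttttctgctggacctcgaaacTGTattggt
The loop was found in 76 of 79 members by its pattern of phenylalanine, glycine, arginine, cysteine and glycine at fixed spacing, which Cyp2b10, Cyp2s1 and Cyp3a59 did not match as searched. The cysteine codon was TGC in 46 members and TGT in 30. Across subfamilies the loops differ widely, by 10 of 30 bases between Cyp1b1 and Cyp1a2. Within subfamilies they can be equal, and 27 members had the same 30 bases as another member. The next 3 sequences are each shared exactly, the first by Cyp2c40, Cyp2c67, Cyp2c68 and Cyp2c69, the second by Cyp2d9, Cyp2d22 and Cyp2d26, and the third by Cyp3a41a, Cyp3a41b and Cyp3a44.
Cyp2c67: ttctcagcaggaaaacggattTGTgtggga
Cyp2d9: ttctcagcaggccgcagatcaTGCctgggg
Cyp3a41a: tttggaattggacccaggaacTGCattggc
A read that lies wholly within such a stretch has no unique gene, while a longer read may still be placed by the bases beside it. Reads placed at several sites made up 45.6% and 42.3% of the lines counted for tumours 1 and 2. For normal liver the share was 51.5% (double heterozygous) and 30.7% (wild type). Counts of members with shared sequence are therefore uncertain, and a percentage shared above 10% is given once beside members described with counts.

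Most P450 transcripts that led in normal liver had few or no counts in the tumours, and Cyp1b1, near 0 in normal liver, was their main P450 transcript. Counts of all 80 members summed to 8476 and 11052 in tumours 1 and 2, or 0.0767% and 0.0831% of gene counts. In normal liver they summed to 580639 (double heterozygous) and 732097 (wild type), or 3.64% and 3.97%. Cyp2e1 and Cyp3a11 together led the normal tables, with 30.6% and 14.9% of the member counts in the first and 26.6% and 18.8% in the second. In the tumours Cyp1b1 alone held 45.7% and 80.1% of the member counts.

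A count of at least 1000 in both normal tables was reached by 33 members, and of at least 10000 by 14. In the tumours 5 members reached 100 counts in both libraries, 51 had at most 3 counts in each and 32 had none. Another view is the order of levels per kilobase of transcript. In normal liver it ran from Cyp2e1 (11121 CPM per kb) over Cyp3a11 (5232), Cyp2f2 (2648) and Cyp2c29 (2448) to Cyp2d9 (1768). In the tumours the mean level ran from Cyp1b1 (71.8 CPM per kb) over Cyp3a13 (19.2), Cyp2s1 (13.4) and Cyp2c65 (11.1) to Cyp2j6 (5.65). None of the 5 leading members in normal liver was among the leading 5 in the tumours, and after Cyp1b1 the order differed between the tumours, with Cyp3a13 ahead of Cyp2s1 in tumour 1 and behind it in tumour 2.

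**Figure D1:**
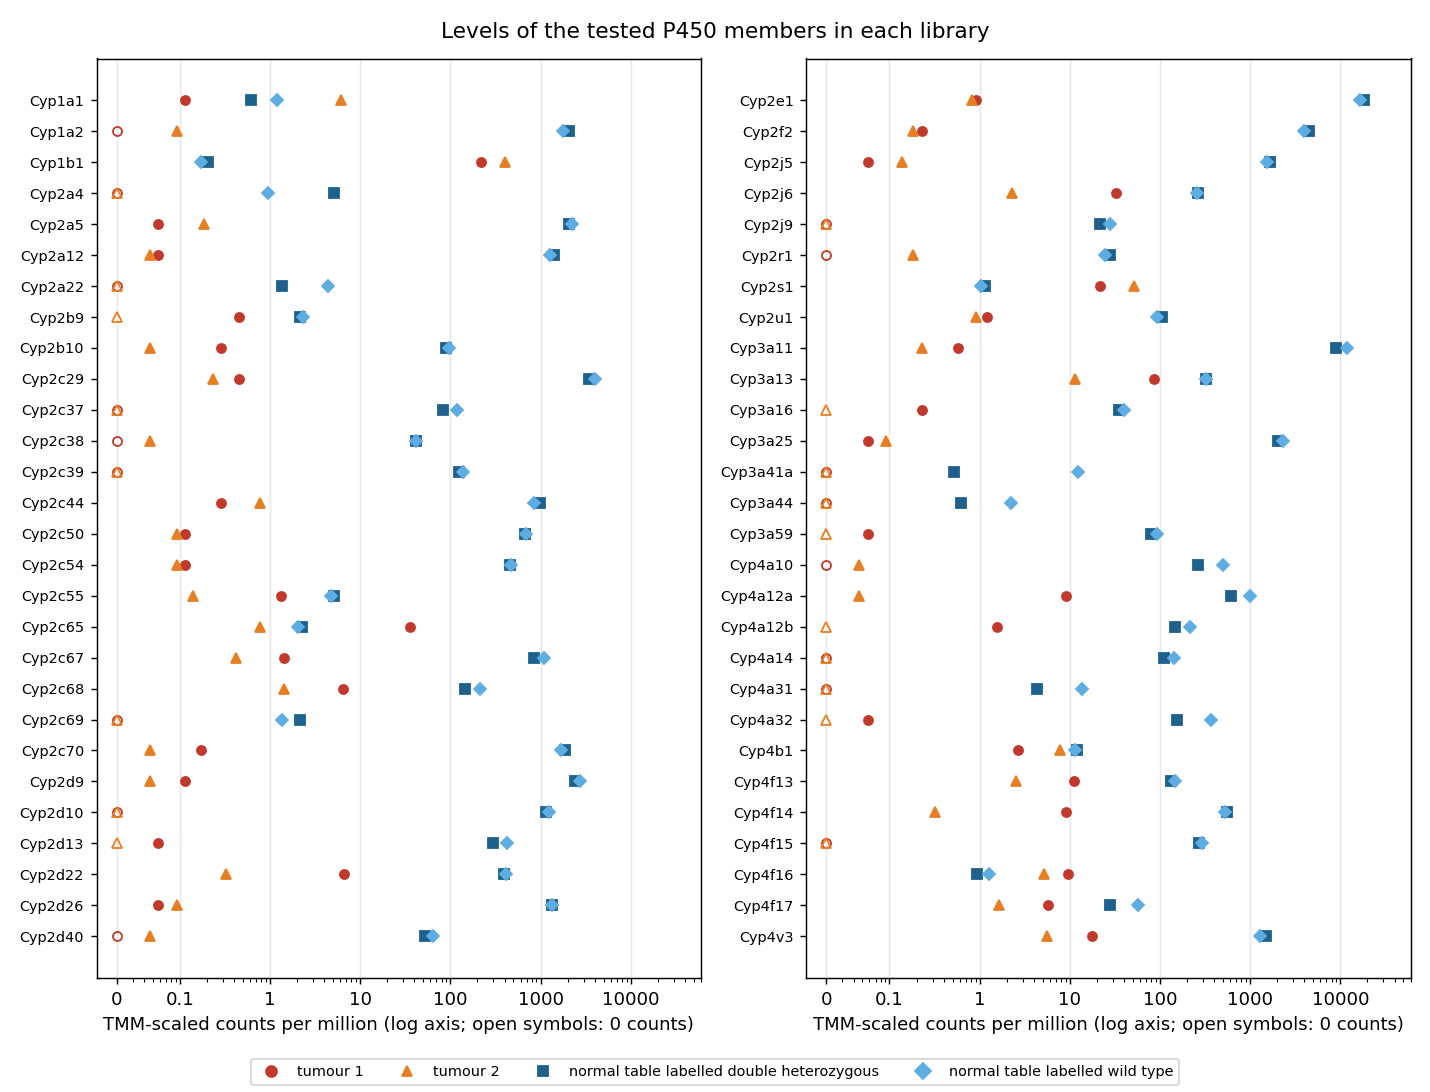
Levels of the 56 tested members in each library, in CPM scaled by TMM over the 4 tables, on a log axis, with open symbols for 0 counts. For most members both tumours (circle and triangle) lie far to the left of both normal tables (square and diamond), and Cyp1b1, Cyp2s1 and Cyp4f16 lie the other way round.

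After the filter on low counts, 56 of the 80 members were tested with edgeR's quasi-likelihood test, with p-values adjusted over all 14468 genes tested. Of these, 31 were lower in the tumours, 1 was higher and 24 did not pass an adjusted p of 0.05. Among all genes tested, 5.19% were called lower and 2.23% higher. Without scaling beyond library size these shares became 3.26% and 4.39%, and those of the members 30 lower and 2 higher. The 31 lower members had fitted log2 fold changes from -17.29 to -6.54 and adjusted p-values from 0.0182 to 0.0388. Fitted values of members at 0 in both tumours, such as the -17.29 of Cyp2d10, depend on the prior count and are no bound. The median log2 fold change of the tested members was -10.17, or -8.74 with members at 0 in both tumours set at the bound of 3 counts per library. The median of all genes tested was 0.19. Most of these members entered the test through the normal library alone, so these medians and counts describe the list.

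By fitted value alone, 50 of 56 tested members were over 4-fold lower and 4 over 4-fold higher, where 17.8% and 22.2% of all genes tested were. Of the 69 members with any count, both tumours lay below both normal tables in 60 and above both in 3, against 36.6% and 34.9% of 18729 genes with a count. The 3 above were Cyp1b1, Cyp2s1 and Cyp4f16. Tumours and normal tables overlapped for Cyp1a1, Cyp2c65, Cyp2d34, Cyp4a29, Cyp4a30b and Cyp4f40. Members with and without shared sequence were among those called. Of 22 tested members with at most 10% shared, 11 were called lower and 1 higher, and of 33 above 10%, 19 were called lower. This split rests on sampled words, and the 22 include Cyp2d26, which by all words shares 14.3% with other members.

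**Figure D2:**
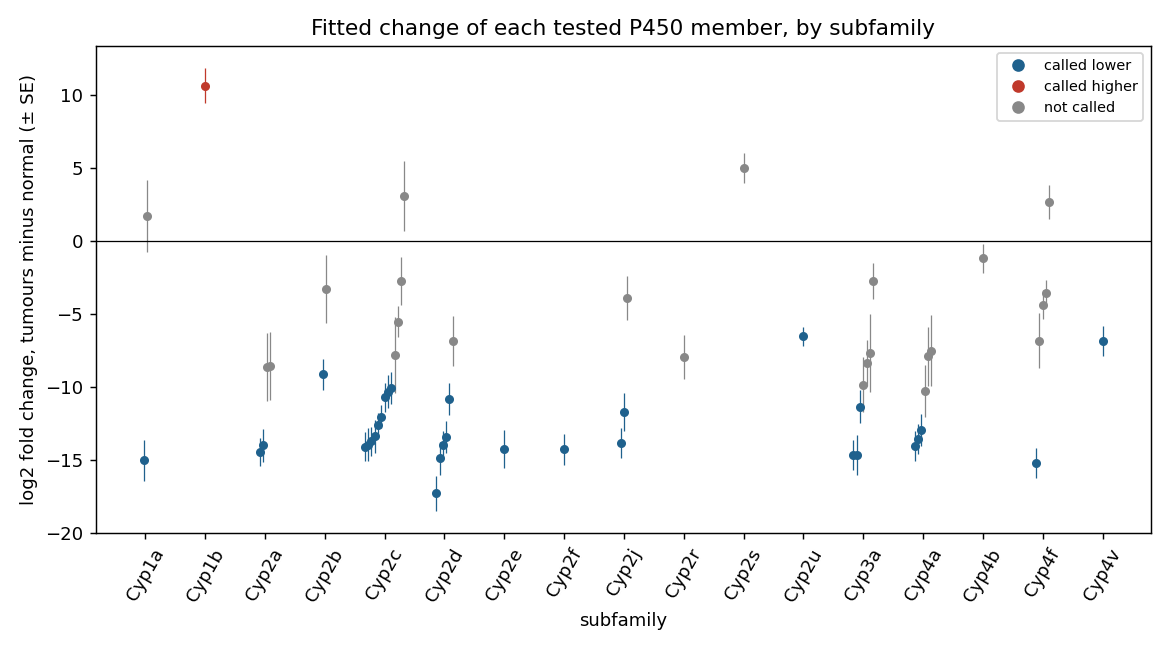
Fitted log2 fold change of each tested member, tumours minus normal liver, grouped by subfamily, with bars of 1 standard error (SE). Members called lower spread over 13 subfamilies, and the single member called higher is Cyp1b1 at 10.66.

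Family 1 holds both the extreme rise and one of the extreme losses. Cyp1b1, which oxidises oestradiol and polycyclic aromatic hydrocarbons and is known mainly outside hepatocytes, had 3872 and 8851 counts in tumours 1 and 2 and 2 counts in each normal table. Both tumours stood far above the normal tables. Its level was 368 ± 152 CPM (SD, n = 2) in the tumours and 0.219 CPM in normal liver, a log2 fold change of 10.66 (SE 1.21, edgeR adjusted p = 0.0255). Because the normal value rests on a mean of 2 counts, the ratio of 1734 has a 95% counting interval of 480 to 14318. None of its sampled 31-base words occurred in another gene.

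Cyp1a2, the hepatocyte enzyme that oxidises caffeine and aromatic amines, did the opposite. It had 0 and 2 counts in the tumours and 20220 and 20623 in the normal tables. The log2 fold change was -15.03 (SE 1.39, adjusted p = 0.0205), and the ratio of normal liver to tumours was 37466 with a counting interval of 10370 to 309393. Cyp1a1, a classic target of the AhR receptor, had 2 and 134 counts in tumours 1 and 2 and 6 and 14 in the normal tables, so only tumour 2 was high. It did not pass the test (log2 fold change 1.74, SE 2.46, adjusted p = 0.674), and without tumour 2 its log2 ratio was -2.17. The counts of tumour 2 set its sign.

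Subfamilies Cyp2a and Cyp2b were close to empty in the tumours. Summed counts of the 4 Cyp2a genes were 2 and 5 in the tumours and 33599 and 41348 in the normal tables. Cyp2a5, the coumarin hydroxylase (58.7% shared), had 1 and 4 counts against 20082 and 26203, and fell by 14.00 on the log2 scale (SE 1.13, adjusted p = 0.0182). Cyp2a12 (37.9% shared) was called lower with it, while Cyp2a4 and Cyp2a22 (61.6% and 37.4% shared) had 0 counts in both tumours, at most 52 in a normal table, and did not pass. The 5 Cyp2b genes summed to 13 and 1 counts against 891 and 1171. Cyp2b10, the standard target of the receptor CAR (21.3% shared), accounted for 870 and 1144 of these and fell by 9.14 (SE 1.09, adjusted p = 0.0267) from 5 and 1 tumour counts. Cyp2b9, known as female-biased (23.9% shared), had 8, 0, 21 and 27 counts in the order tumour 1, tumour 2, double heterozygous and wild type, and did not pass (adjusted p = 0.409). Cyp2b13, Cyp2b19 and Cyp2b23 had 0 counts in all 4 libraries.

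Cyp2c, the subfamily with most members, was low in the tumours but for 1 gene known from the gut, which was high in tumour 1. Its 15 genes summed to 806 and 89 counts in tumours 1 and 2 and to 83612 and 108964 in the normal tables. Of 13 tested, 9 were called lower. Cyp2c29, an arachidonic acid epoxygenase (13.8% shared), had 8 and 5 counts against 33139 and 46513, and its level was 4365 CPM in normal liver and 0.404 ± 0.191 CPM (SD, n = 2) in the tumours. It fell by 13.39 on the log2 scale (SE 1.12, adjusted p = 0.0182). Cyp2c50 and Cyp2c54 (30.1% and 38.2% shared) had 2 counts in each tumour, against 6495 and 8160 for the former and 4396 and 5457 for the latter. Cyp2c37 and Cyp2c39 (48.1% and 27.0% shared) had none in either tumour, so normal liver was at least 663-fold and 850-fold higher. Cyp2c70, which makes the muricholic acids of mouse bile, and the epoxygenase Cyp2c44 shared no sampled words with other genes. Cyp2c70 had 3 and 1 tumour counts against 18004 and 19896. Cyp2c44 had 5 and 17 against 9477 and 9951, and both were called lower.

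Cyp2c65, known mainly from the gut (30.8% shared), made up most of the Cyp2c counts of tumour 1. It had 624 counts in tumour 1, 17 in tumour 2, and 22 and 24 in the normal tables. Only tumour 1 was high, and the log2 fold change of 3.09 (SE 2.38) did not pass (adjusted p = 0.439). Without tumour 1 its log2 ratio was -1.34. Cyp2c68 (63.7% shared) had 114 and 31 counts against 1402 and 2508 and missed the threshold (adjusted p = 0.0574), as did Cyp2c55 with 23, 3, 50 and 55 counts (adjusted p = 0.347).

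Cyp2d genes encode the steroid and drug hydroxylases related to human CYP2D enzymes. Their 9 genes summed to 120 and 11 counts in the tumours and 54232 and 73130 in the normal tables. Cyp2d10 (48.8% shared) had 0 counts in both tumours and 11031 and 14688 in the normal tables, so normal liver was at least 7762-fold higher against the floor of 3 counts per library (adjusted p = 0.0223). Cyp2d9, the male-biased testosterone hydroxylase (31.7% shared), had 2 and 1 counts against 23201 and 32017, a ratio of 33768 with a counting interval of 11554 to 163754. Cyp2d26 has the same loop as Cyp2d9. Its share was 8.53% in the sampled words, but 14.3% of all its words occurred in other members. It had 1 and 2 counts against 12862 and 15758 and was called lower. So were Cyp2d40 (22.2% shared) and Cyp2d13, each with at most 1 count in a tumour. No transcript was matched to Cyp2d13, so its shared percentage is not known. Cyp2d22, with only 5.20% shared, kept 116 counts in tumour 1 and 7 in tumour 2, against 3758 and 4849, and did not pass (log2 fold change -6.85, SE 1.74, adjusted p = 0.0964).

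Cyp2e1 and Cyp2f2, each alone in its subfamily, fell with little shared sequence. Cyp2e1, which oxidises ethanol and paracetamol, was the most abundant member in normal liver with 177521 and 194440 counts, and had 16 and 18 in the tumours. Its level fell from 20385 CPM to 1.02 ± 0.0791 CPM (SD, n = 2), a log2 fold change of -14.27 (SE 1.32, adjusted p = 0.0205), with 7.19% of its words shared. Cyp2f2, which oxidises naphthalene in liver and in airway cells, had 4 counts in each tumour against 43715 and 46453, and fell by 14.27 (SE 1.08, adjusted p = 0.0182). Cyp2g1, an olfactory enzyme, had 0 counts in the tumours and 7 and 10 in the normal tables and was not tested.

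Members of the remaining Cyp2 subfamilies split in direction. The Cyp2j genes make epoxides of arachidonic acid. Cyp2j5, the form of kidney and liver, had 1 and 3 counts against 16127 and 17763 and was called lower, as was Cyp2j9, a form known from brain, with 0 counts in the tumours and 210 and 328 in the normal tables. Cyp2j9 lost its call without scaling (adjusted p = 0.0586). Cyp2j6, a broadly expressed form, kept 566 counts in tumour 1 and 49 in tumour 2, against 2550 and 2989, and did not pass (log2 fold change -3.90, adjusted p = 0.187). Cyp2u1, a fatty acid hydroxylase known from brain and thymus (15.6% shared), had 21 and 20 counts against 1024 and 1095. It fell by 6.54 on the log2 scale (SE 0.63, adjusted p = 0.0215), the smallest fall among the members called lower, and its tumour values hardly differed.

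Cyp2r1, which adds the first hydroxyl group in the activation of vitamin D, stood at 0 in tumour 1, 4 in tumour 2, and 269 and 287 counts in normal liver, and narrowly missed the threshold (log2 fold change -7.96, SE 1.52, adjusted p = 0.0580). Cyp2s1, an enzyme of lining epithelia, was the member most like Cyp1b1 in its counts. It had 378 and 1106 counts in the tumours and 11 and 12 in the normal tables, 42.4 CPM on average against 1.32 CPM. Both tumours lay above both normal tables, and the fitted log2 fold change of 5.002 (SE 1.03) missed the threshold (adjusted p = 0.0668). It passed under 4 of the other settings. Cyp2t4, Cyp2w1, Cyp2j7, Cyp2j11, Cyp2j12 and Cyp2j13 had 0 counts everywhere.

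Family 3 lost Cyp3a11 and kept part of Cyp3a13. Its 9 genes, all of subfamily Cyp3a, summed to 1506 and 254 counts in the tumours and 110266 and 170169 in the normal tables. Cyp3a11, the main drug-metabolising Cyp3a of adult mouse liver and a target of the receptor PXR (18.0% shared), had 10 and 5 counts against 86254 and 137536. Its level was 0.471 ± 0.287 CPM (SD, n = 2) in the tumours and 12265 CPM in normal liver. It fell by 14.66 on the log2 scale (SE 1.39, adjusted p = 0.0212). Cyp3a25 (56.2% shared) had 1 and 2 counts against 19771 and 27094 and was called lower, with a ratio of normal liver to tumours of 28659 (counting interval 9805 to 138981). Cyp3a59 (55.2% shared), with 1 and 0 counts against 774 and 1096, was called lower too.

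Cyp3a13, a form known from gut as well as liver, made up nearly all Cyp3a counts of the tumours. It had 1490 counts in tumour 1 and 247 in tumour 2, against 3117 and 3802 in the normal tables, with 0.516% of its words shared. Both tumours were below the normal tables, but the log2 fold change of -2.74 (SE 1.21) did not pass (adjusted p = 0.228). Its heme loop, shown above, differs from that of Cyp3a11 by 3 of 30 bases. Cyp3a16, a fetal and female form (31.7% shared), had 4 and 0 counts against 337 and 467 and missed the threshold (adjusted p = 0.0558). Cyp3a41a and Cyp3a44 (99.1% and 55.0% shared) did not pass either, with 0 counts in the tumours. Cyp3a41b, whose words are 97.4% shared, had 0 counts in all libraries.

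Cyp4a genes hydroxylate the ends of fatty acids and include textbook targets of PPAR alpha. Their 8 genes summed to 185 and 2 counts in tumours 1 and 2 and to 12454 and 26174 in the normal tables. Cyp4a14, with 0.667% of its words shared, had 0 counts in both tumours and 1060 and 1662 in the normal tables, so normal liver was at least 822-fold higher (adjusted p = 0.0226). Cyp4a10 (50.8% shared) had 0 and 1 counts against 2543 and 5808 and was called lower. Cyp4a32 (60.4% shared), with the same heme loop, had 1 and 0 counts against 1480 and 4277 and was called lower as well. Both were higher in the table labelled wild type than in the other normal table, a difference taken up below. Cyp4a12a, the male-biased form that makes a vasoactive lipid from arachidonic acid (50.3% shared), had 157 counts in tumour 1 and 1 in tumour 2, against 5920 and 11732. Only tumour 1 kept a measurable level, and the log2 fold change of -7.51 (SE 2.42) did not pass (adjusted p = 0.145).

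Of the other Cyp4 genes, several kept counts in the tumours. Cyp4f15, a fatty acid hydroxylase, had 0 counts in both tumours against 2612 and 3459, at least 1832-fold higher in normal liver (adjusted p = 0.0215). Cyp4f14, which inactivates leukotrienes, had 158 and 7 counts against 5297 and 6194, and Cyp4f13 had 195 and 55 against 1294 and 1701. Neither passed the test (adjusted p = 0.111 and 0.0819). Cyp4f16 (27.9% shared) went the other way with 169 and 111 counts in the tumours and 9 and 15 in the normal tables, and did not pass (log2 fold change 2.71, SE 1.16, adjusted p = 0.218). Its loop differs from that of Cyp4f15 by 3 of 30 bases.

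Cyp4v3, the counterpart of the human gene mutated in Bietti crystalline dystrophy, fell from 14320 and 14944 counts to 311 and 120. The log2 fold change was -6.87 (SE 1.02, adjusted p = 0.0383), and it was the called member with most tumour counts after Cyp1b1. Cyp4b1, best known from lung (10.3% shared), had 46 and 169 counts in the tumours and 116 and 135 in the normal tables. Its log2 fold change was -1.18 (SE 0.99, adjusted p = 0.476) and became 0.20 without scaling beyond library size, so its direction is not settled. Cyp4x1 had 0 counts everywhere.

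Grouped by where the enzymes are known to act, the hepatocyte members near the central vein were low, as were many other members. All 8 of these (Cyp1a2, Cyp2a5, Cyp2c29, Cyp2c37, Cyp2c50, Cyp2c54, Cyp2e1 and Cyp3a11) were called lower, where 5.19% of all genes tested were. Their median log2 fold change was -13.87. Some members outside this list fell as far, such as Cyp2f2 (-14.27), Cyp2d9 (-14.89), Cyp2c70 (-13.95) and Cyp2j5 (-13.84), while others fell less or rose. The fall is therefore not particular to this list. Of 14 members listed as known mainly outside hepatocytes or broadly, 8 were tested, with a median of -3.86. Of these, 3 were called lower (Cyp2j9, Cyp2u1 and Cyp4v3) and 1 higher (Cyp1b1), where 5.19% and 2.23% of all genes tested were. The list holds Cyp4v3, which had 14320 and 14944 counts in normal liver. It leaves out Cyp2c65 (3.09) and Cyp2j6 (-3.90), described above in like terms, so its counts depend on that choice. Counts of members known as sex-biased in mouse liver were read beside the sex chromosome genes. Xist, expressed from the inactive X, had 0 counts in tumour 1, 6626 in tumour 2 and 9 in each normal table, and Y-linked Ddx3y had 2208, 2, 1669 and 1860. These counts read as male in tumour 1 and both normal tables and as female in tumour 2. Tumour 2 therefore has no normal liver of its own sex here. Of the 3 male-biased members, Cyp2d9 was called lower, and Cyp4a12a and Cyp4a12b (52.7% shared) had counts of 157 and 27 in tumour 1 and 1 and 0 in tumour 2. Of 11 female-biased members, 8 were tested and 2 called lower, Cyp2b10 and Cyp4a14. Their levels in tumour 2 were at most 1 count.

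The stretch before each gene's start was examined as a description, and its part in the changes was not tested. Among 64 members with an entry in the RefSeq promoter table (GRCm38.p6), the 250 bases before the start held a median of 2 CpG dinucleotides, against 6 in all 27025 promoters of the table. The 25 members called lower had a median of 1 CpG and a range of 0 to 17. The 19 tested and not called had a median of 2 and a range of 0 to 16. Cyp1b1 had 12 and Cyp2s1 15, and Cyp4f16 had 2. A high count did not go with a rise in every case, since Cyp2r1 had 16 and Cyp4v3, called lower, 17. The promoters of the leading members on either side are shown 5′ to 3′ in the direction of transcription. Capitals mark TATAAA on the strand shown, and on either strand CAAAGTCCA, a site of the liver factor HNF4, and GCGTG, the core bound by AhR with ARNT, which reads CACGC from the other side. They lie at chr17:79715062-79715311 (minus strand) for Cyp1b1, chr7:25816526-25816775 (minus) for Cyp2s1, chr7:140763569-140763818 (plus) for Cyp2e1 and chr5:145879855-145880104 (minus) for Cyp3a11, all GRCm38.p6.
Cyp1b1: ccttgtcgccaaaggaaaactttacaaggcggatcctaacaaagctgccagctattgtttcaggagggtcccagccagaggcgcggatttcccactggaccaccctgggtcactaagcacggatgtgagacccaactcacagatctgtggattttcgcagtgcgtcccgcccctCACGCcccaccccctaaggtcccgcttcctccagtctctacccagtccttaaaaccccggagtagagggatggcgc
Cyp2s1: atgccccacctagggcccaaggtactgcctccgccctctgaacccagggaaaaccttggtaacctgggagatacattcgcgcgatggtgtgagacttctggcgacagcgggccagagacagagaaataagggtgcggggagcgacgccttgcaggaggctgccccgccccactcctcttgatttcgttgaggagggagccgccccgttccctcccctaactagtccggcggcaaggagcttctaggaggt
Cyp2e1: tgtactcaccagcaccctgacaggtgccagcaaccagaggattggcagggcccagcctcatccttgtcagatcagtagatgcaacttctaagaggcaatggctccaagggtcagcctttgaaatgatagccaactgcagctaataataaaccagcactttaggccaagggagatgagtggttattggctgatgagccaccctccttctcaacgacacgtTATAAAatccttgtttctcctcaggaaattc
Cyp3a11: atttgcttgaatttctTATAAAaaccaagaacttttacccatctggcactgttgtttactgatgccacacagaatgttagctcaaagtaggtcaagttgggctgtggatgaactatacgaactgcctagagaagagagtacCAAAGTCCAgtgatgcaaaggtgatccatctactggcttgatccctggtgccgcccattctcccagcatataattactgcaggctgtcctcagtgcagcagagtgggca
TATAAA was found in 19 of 64 members (29.7%) and in 8.12% of all promoters in the table. In 12 of them it lay within 40 bases of the start, in Cyp2e1 at -31 to -26, and in 7 farther off. Among the latter was Cyp3a11, where the marked letters lie at -234 to -229. By call, TATAAA was found in 8 of 25 members called lower (32%) and in 8 of 19 tested and not called (42.1%). CAAAGTCCA was found in 10 members (15.6%), with Cyp3a11 among them, against 0.381% of all promoters. Of these 10, 3 were called lower, 5 were tested and not called, and 2 were not tested. GCGTG was found in 12 members (18.8%) and in 28.2% of all promoters, and GTTAAT, a part of the HNF1 site searched on both strands, in 14.1% and 6.52%. The sequence of Cyp2s1 held none of the marked motifs, and no motif overlapped another in the sequences shown. A match of letters is a description and shows no binding.

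**Figure D3:**
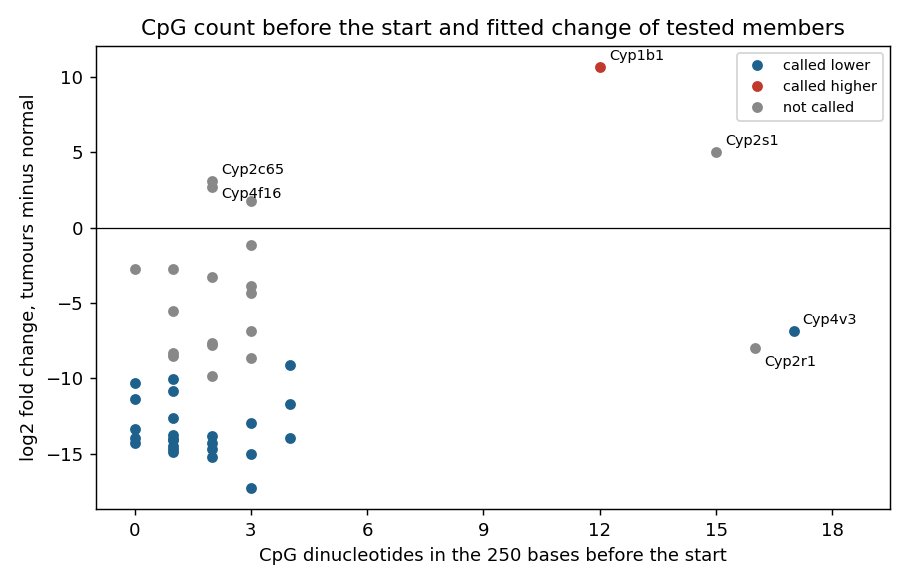
CpG dinucleotides in the 250 bases before the start (horizontal) and fitted log2 fold change, tumours minus normal liver (vertical), of the tested members with a RefSeq promoter. Most members called lower have at most 4 CpG, Cyp1b1 and Cyp2s1 have 12 and 15, and Cyp4v3 is low with 17.

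Of 40 tested genes that serve or control the P450 enzymes, 8 were called lower and none higher, where 5.19% and 2.23% of all genes tested were. The lack of higher calls is near that share in a list of this size. Por, the reductase that feeds electrons to all microsomal P450 enzymes, had 1497 and 2457 counts in the tumours and 25023 and 27228 in the normal tables. It fell by 4.62 on the log2 scale (SE 0.72, edgeR adjusted p = 0.0413), and was the only 1 of 5 electron donor genes called. Alas1, the rate-limiting enzyme of heme synthesis in liver, went from 11817 and 14717 counts to 776 and 684 (log2 fold change -5.03, SE 0.68, adjusted p = 0.0331). Alas2, its form in red cells, had 0 counts in the tumours and 279 and 290 in the normal tables and was called too, so 2 of 13 heme genes were lower. Hmox1, which breaks heme down, had 924 and 631 counts against 216 and 239 and did not pass (log2 fold change 0.94, adjusted p = 0.418).

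Among 22 tested regulators, 5 were called lower (Nr1i3, Ppara, Foxa1, Onecut1 and Rora), where 5.19% of all genes tested were. Nr1i3, the gene of CAR, had 0 counts in both tumours and 2343 and 3960 in the normal tables, at least 1902-fold higher in normal liver (67.1% shared). Ppara had 49 and 11 counts against 7713 and 8493 (log2 fold change -8.84, SE 1.29, adjusted p = 0.0366). Nr1i2, the gene of PXR, had 62 and 3 counts against 1534 and 1873 and did not pass (adjusted p = 0.105), nor did Hnf4a with 2323 and 1991 against 11330 and 12038 (adjusted p = 0.0620). Ahr, the receptor behind Cyp1a1 and Cyp1b1 induction, had 1056 and 6439 counts against 443 and 484, with a log2 fold change of 2.04 (SE 1.17, adjusted p = 0.322). The median log2 fold change of the 40 partner genes was -1.89. None was higher by edgeR, nor at an unadjusted p of 0.05 or by DESeq2, by which 12.2% of all genes were. By DESeq2 20 were lower, where 12.8% of all genes were, and with both normal tables kept apart 29 were, where 23.4% of all genes were. Without scaling 4 were, and Por, Alas2, Foxa1 and Rora lost their call, with adjusted p-values from 0.0549 to 0.0972.

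The tumours differed from each other in the members they kept. Tumour 1 held more Cyp2c65, Cyp2j6, Cyp3a13 and Cyp4f13, and tumour 2 held more Cyp1b1 and Cyp2s1. This sets 1 library against 1, so it has no test and no replicate check. The sex chromosome genes given above also differ between the tumours, so sex cannot be told apart from other differences. Levels for this comparison are CPM scaled by TMM over the 4 tables. Of the 7 members at 10 CPM or more in either tumour, 4 were over 4-fold lower in tumour 2 and none over 4-fold higher, where 2.97% and 6.76% of 9226 genes were. The log2 ratios of tumour 2 to tumour 1 were -5.34 for Cyp2c65, -3.78 for Cyp2j6, -2.89 for Cyp3a13 and -2.09 for Cyp4f13. Cyp4v3 stood at -1.67, Cyp1b1 at 0.88 and Cyp2s1 at 1.24. Below that level, Cyp1a1 had 2 counts in tumour 1 and 134 in tumour 2. Cyp4a12a, Cyp4f14 and Cyp2d22, given above, had most of their tumour counts in tumour 1, and Cyp4b1 had more in tumour 2. On the CPM scale of the tests, Cyp4a12a, Cyp4f14 and Cyp4f16 also reached 10 CPM in tumour 1 (10.6, 10.6 and 11.4). Their log2 ratios of tumour 2 to tumour 1 were -5.94, -4.43 and -0.90. The summed bile duct markers were near equal in the tumours, though Epcam was not. By contrast, stellate cell and fibroblast markers summed to 5.07 CPM in tumour 1 and 412 CPM in tumour 2. Col1a1 and Pdgfrb made up most of the latter, and the part of such cells in these ratios was not tested.

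**Figure D4:**
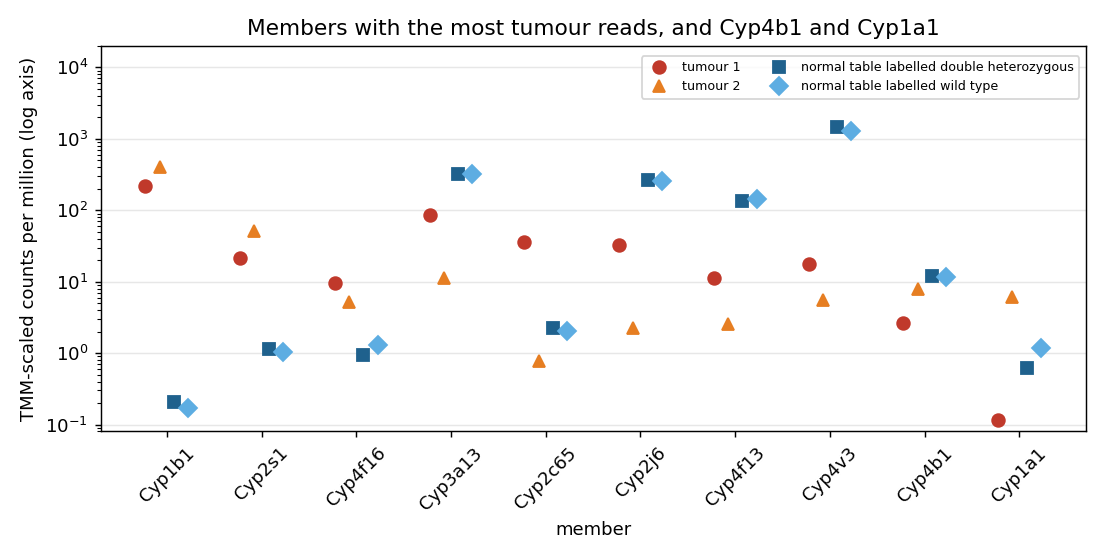
CPM, scaled by TMM over the 4 tables and on a log axis, of the 8 members with the most tumour counts per kilobase and of Cyp4b1 and Cyp1a1. Cyp1b1, Cyp2s1 and Cyp4f16 are above normal liver in both tumours, while Cyp2c65 is above it in tumour 1 only and Cyp1a1 in tumour 2 only.

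The normal tables, labelled double heterozygous and wild type, gave nearly the same P450 profile. As given above, their low counts were exactly equal far more often than those of the tumours, and whether they hold overlapping reads was not tested. Their likeness therefore says nothing of what the genotype does, and the ratios are a description with no test. Of 45 members at 10 CPM or more in either, 4 were over 2-fold lower in the table labelled double heterozygous and none over 2-fold higher, where 3.47% and 0.977% of 8294 genes were. These were Cyp3a41a with 5 against 143 counts (log2 ratio -4.14), Cyp4a31 with 42 against 159 (-1.60), Cyp4a32 with 1480 against 4277 (-1.25) and Cyp4f17 with 269 against 663 (-1.02). Of the 4, only Cyp4f17 has under 10% of its words shared (9.34%), while the others have 99.1%, 29.1% and 60.4%. The median log2 ratio was -0.20 over 26 members with more than 10% of sampled words shared and 0.05 over 18 with less, Cyp2d26 among them. For Cyp2e1 it was 0.15, for Cyp1a2 0.25 and for Cyp3a11 -0.39. The share of reads placed at several sites, given above, was lowest in the table labelled wild type, and its part in these ratios was not tested.

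**Figure D5:**
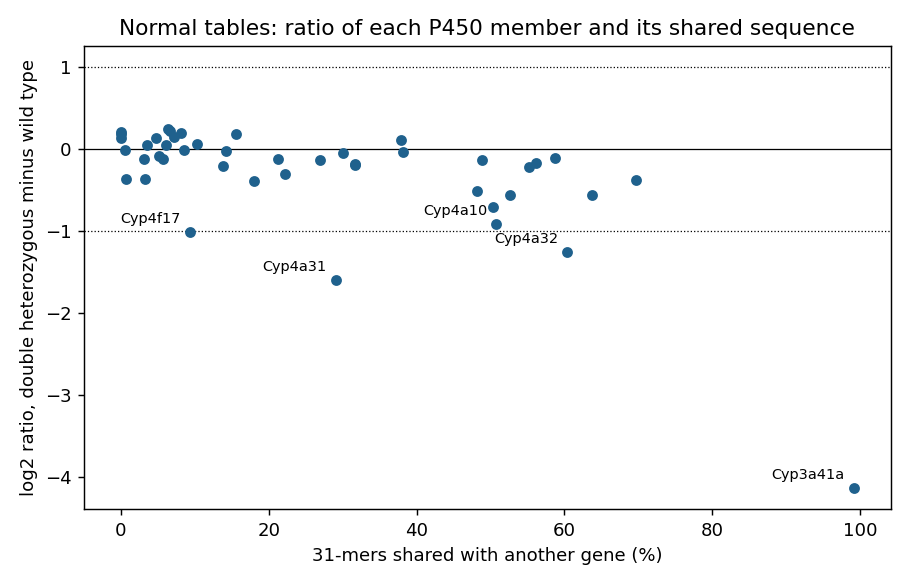
Log2 ratio of the normal table labelled double heterozygous to that labelled wild type (vertical) against the percentage of 31-base words shared with another gene (horizontal), for members at 10 CPM or more in either table with a matched sequence. Dotted lines mark 2-fold, and Cyp3a41a, with 99.1% shared, lies lowest at -4.14.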

How the data were processed

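RNA of 4 libraries was sequenced and the authors deposited raw read counts per gene, 1 table per library, with no normalization. The submitters' processing notes name TopHat2 2.0.10, HTSeq, DESeq2 and the build mm9 without a role. Use of strand is not given in the sources used here, so reads of overlapping antisense genes cannot be told apart. The 5 lines per table that name no gene were left out of library sizes. Tumours were compared with the rounded mean of the normal tables in edgeR 4.0.16 (R 4.3.3) with filterByExpr (minimum count 10), TMM scaling, glmQLFTest and Benjamini-Hochberg adjustment over all genes. The fit has 1 residual degree of freedom, from the tumours, a common dispersion of 0.442 and a median of 3.32 prior degrees of freedom. The SE was derived from the log2 fold change and its F statistic and is approximate. Floors are 3 counts per library (0.202 and 0.161 CPM in the tumours). Intervals are exact at 95%, and both cover counting error only. Pairs of libraries were compared as log2 ratios of CPM scaled by TMM over the 4 tables, with a prior count of 2. Shared 31-base words were counted in a sample of 1 in 16, with 89.1% of symbols matched. Named members are, per subfamily, the highest in normal liver and in the tumours, the 5 largest changes in each direction, those called higher and a fixed set. Genes named beyond these, such as Cyp2a12, Cyp2c70, Cyp2c44, Cyp2d13 and Cyp4a32, were chosen after their values were seen. The members and lists were chosen with earlier results of these data known. One gene of the regulator list is not reported here and is left out of its counts. The scripts were tested on simulated data. Those for the edgeR fit were drawn at a dispersion well below the 0.442 of these data, so they say nothing of its error rates here.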

Additional observations from a re-analysis of the deposited data

How the results depend on the processing

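Members called lower numbered 31 and stayed between 30 and 42 under DESeq2 1.42.0, RLE size factors, upper quartile or no scaling, no filter, each normal table alone, and both normal tables as separate libraries, while the share of all genes called lower ran from 3.26% without scaling over 12.8% under DESeq2 to 23.4% with both normal tables kept apart. Without genes with shared sequence 12 of 23 were lower, since fewer genes are tested. These 23 hold Cyp2d13, which was not matched, and Cyp2d26, whose share was under 10% only in the sampled words. All 31 kept their call under these settings except Cyp2j9 without scaling (adjusted p = 0.0586), and the members left out with shared sequence. Members called higher numbered 1 of 56, where 2.23% of all genes were. They numbered 2 under DESeq2, without the filter and without scaling, where 12.2%, 4.88% and 4.39% of all genes were. With both normal tables kept apart they numbered 3 of 53, where 22.6% of all genes were. Cyp1b1 kept its call throughout, and Cyp2s1 passed under these 4 settings, without scaling at an adjusted p of 0.0495. The median log2 fold change of -10.17 became -8.10 without the filter, -7.96 without shared genes, and lay between -10.36 and -7.81 when 1 library was left out (without a tumour, a ratio with no test). With tumour 1 or tumour 2 left out, 50 members were over 4-fold lower and 4 higher, but not all the same members. Without tumour 1 the higher held Cyp1a1 (2.57) and not Cyp2c65, and without tumour 2 Cyp2c65 (3.99) and not Cyp1a1. Without tumour 2, Cyp4b1 (-2.11) was among the lower and Cyp3a13 (-1.92) was not. Partner genes called lower numbered 8, and 20 under DESeq2, 29 with both normal tables kept apart, 17 without the filter, and 4 without scaling or without shared genes. None was called higher except 1 with both normal tables kept apart, where 22.6% of all genes were. Between tumours the count of 4 of 7 became 9 of 14 without scaling and 11 of 19 at 1 CPM or more. That between the normal livers, 4 of 45, became 2 of 42 without scaling and 9 of 58 at 1 CPM or more. Without shared genes it became 1 of 19. The shares of all genes under these settings are not given, so these counts describe the members only. Signs turned when a tumour was left out for Cyp1a1 (-2.17 to 2.57) and Cyp2c65 (-1.34 to 3.99), and for Cyp4b1 without scaling (0.20). Dropping the scaling moved the median of all genes by 1.37 on the log2 scale and upper quartile scaling by 0.23. The cause of the other shifts was not tested. No paired analysis was possible because each normal group has 1 library, so the groups share fewer than 2 replicate numbers. Depth limits what can be said of members at 0, which could lie below 3 counts.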
